A study of Mus musculus with 8 samples.

Results

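Conventional CD4 T cells are the helper arm of the alloresponse: their antigen receptor reads peptide on MHC class II, which the coreceptor CD4 binds, and full activation also needs costimulation through receptors such as CD28 and ICOS. Activated cells can take up several programmes, among them Th1 cells that make interferon gamma, Th2 and Th17 cells with other cytokines, and follicular helper (Tfh) cells that help B cells. In grafts they are known for licensing CD8 T cells and macrophages, and some acquire granzymes themselves.

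Here 85 conventional CD4 T cells were found among 47541 cells in 8 Microwell-seq libraries, a share of 0.179%. The cells were selected on their own unique molecular identifier (UMI) counts, where 1 UMI stands for 1 captured mRNA molecule. A cell was taken when it held at least 500 UMIs with at most 10% mitochondrial ones, at least 2 UMIs of Cd3d, Cd3e, Cd3g and Trac together, at least 1 UMI of Cd4 and no UMI of Cd8a, Cd8b1, Csf1r, Cd79a or Foxp3. It also had to hold at most 2 UMIs of the complement genes C1qa, C1qb and C1qc, fewer than 3 of the regulatory genes Foxp3, Ctla4, Tnfrsf4, Ikzf2 and Il2ra, and fewer than 3 of 6 cycling genes. Levels of these genes therefore describe the choice of cells and carry no test below.

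The libraries came from heart, liver and kidney allografts on day 7 after transplantation, with 1 library per condition. Hearts, livers and kidneys of BALB/c donors had been implanted into C57BL/6 recipients, both 8 weeks old, and no immunosuppressive drug was given. The labels name BALB/c alone as strain and male as sex for every library, and they do not say how many animals entered each one. The study's methods draw the blood and graft samples of an organ from 2 recipients, without saying which of them entered a library. Blood mononuclear cells (PBMC) and lymphocytes isolated from the graft (TIL) were read for each organ, and cells of the solid organ (PC) for liver and kidney. The CD4 T cells numbered 4 in heart, 3 in liver and 7 in kidney PBMC. They numbered 15 each in the TIL libraries labelled heart and liver, 1 in kidney TIL, 40 in liver PC and 0 in kidney PC.

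These 85 cells held 92855 UMIs, with a lowest, median and highest total per cell of 516, 996 and 2130. Liver PC alone gave 47.1% of the cells and 55.1% of their UMIs, so sums over all libraries lean on it. Total UMIs per library ran from 3418722 to 19171264. Marker genes of the organs went against 2 labels. Over all barcodes, 9 hepatocyte genes reached 850.3 CPM (UMIs of the genes scaled to 1000000 in all) in the library labelled heart TIL and 80.5 CPM in the library labelled liver TIL. In reverse, 8 cardiomyocyte genes reached 176 CPM in the library labelled liver TIL and 26.1 CPM in the one labelled heart TIL. Both are named by their labels below. The CD4 against CD8 comparison is given also without both, while the comparisons of graft with blood need at least 1 of them and were run without each in turn. Of the 85 cells, 7 had a barcode that also occurred in another library. Genes of other lineages were present nearly throughout: 83 of the 85 cells held a UMI of Lyz2, S100a8, S100a9, Cd79b, Ms4a1 or Jchain.

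The choice rested on few molecules. Of the 85 cells, 72 held a single Cd4 UMI, 8 held 2, and 5 held 3 or more, with 5 as the highest. Exactly 2 CD3 or Trac UMIs were present in 12 cells. Just outside the limits, 2571 T cells failed on Cd4 alone, 67 on Cd8a and Cd8b1 alone and 17 on the regulatory genes alone. Another 48 failed on CD3 alone, and 28 on C1q alone, of which 10 were 1 UMI over the limit. The C1q limit also removed 8855 of the 20789 T cells, defined as cells with at least 2 UMIs of Cd3d, Cd3e, Cd3g and Trac. All of those removed lay in graft libraries and 0 in PBMC. The heart PBMC table has no row for Foxp3, so that condition was met there without being read.

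Cd4 UMIs were more frequent in T cells without Cd8 than in those with it in 6 of the 8 libraries, but by unequal margins. In liver PC, 40 of 359 T cells without Cd8 held a Cd4 UMI (11.1%, exact 95% interval 8.08 to 14.9%), against 36 of 1584 with Cd8 (2.27%) and 13 of 1272 myeloid cells (1.02%), which were chosen on Csf1r, C1q and Lyz2 and serve as a measure of free RNA, although monocytes can carry Cd4. Median depths were 1090.0, 1264 and 1385 UMIs. In the library labelled liver TIL the shares without and with Cd8 were 2.63% (1.48 to 4.30%) and 0.624% (0.229 to 1.35%), and as in liver PC the intervals did not overlap. In the other libraries they overlapped. In kidney PBMC the shares were 8.14% (3.34 to 16.1%) and 1.25% (0.152 to 4.44%), and in the library labelled heart TIL 1.81% (1.02 to 2.97%) and 0.969% (0.555 to 1.57%). Heart PBMC had 1.07% and 0 of 290 cells, which allows a share of up to 1.03%, and liver PBMC had 2.24% and 0.725%. In kidney TIL the order was opposite, with 0.463% in T cells without Cd8 and 0.926% in those with it, so the 1 cell there lay at background. Kidney PC had no Cd4 UMI in either class. All these intervals cover counting error only.

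**Figure D1:**
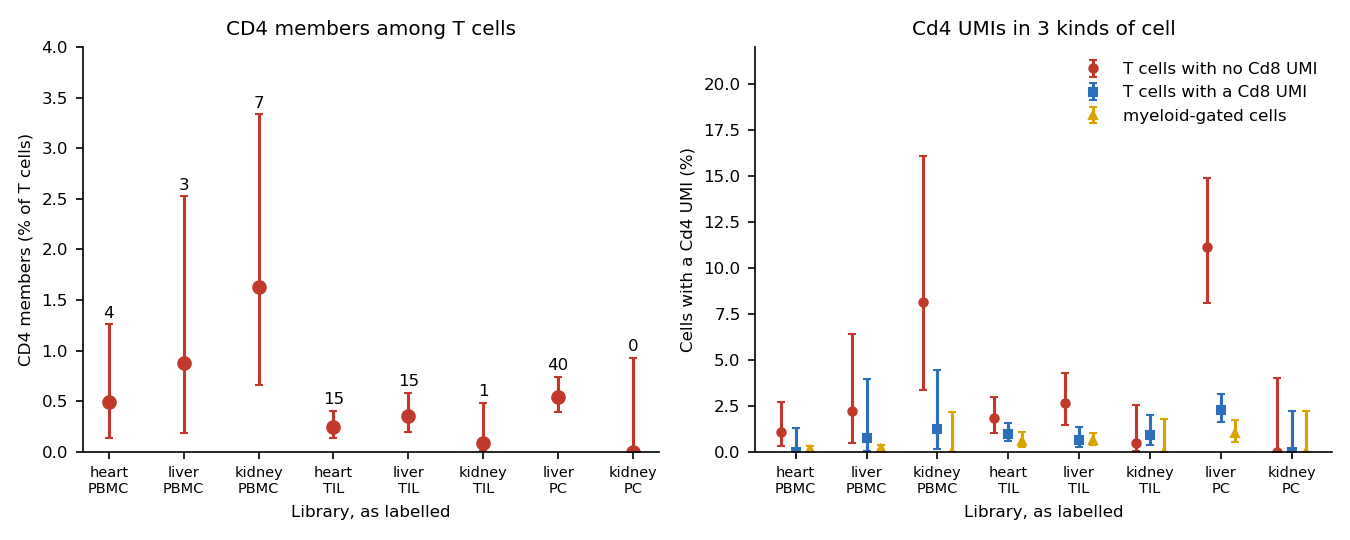
Left, CD4 T cells as a percent of T cells in each library, with exact 95% binomial intervals and the number of cells above each point. Right, percent of cells with a Cd4 UMI among T cells without and with a Cd8 UMI and among myeloid-gated cells, with the same intervals. The PBMC points on the left lie at 0.494, 0.872 and 1.63%, above the TIL points at 0.246, 0.355 and 0.0872%, and on the right liver PC and kidney PBMC stand farthest above their background.

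Cells that met the rule were counted in blood and graft as a share of all T cells. This share depends on how often a Cd4 UMI was captured. Of the 85 cells, 72 held a single Cd4 UMI, and 2571 T cells under the same limits held neither Cd4 nor Cd8. It therefore does not estimate how frequent CD4 T cells were. The share was 0.494% in blood of heart recipients, 0.872% in liver and 1.63% in kidney recipients. It was 0.246%, 0.355% and 0.0872% in TIL, where the first 2 are the libraries labelled heart and liver. Every TIL library lay below every PBMC library. The C1q limit worked toward this order, as it took cells from TIL and not from PBMC while the count of T cells kept them. The means were 0.229% ± 0.135 (SD, n = 3) and 0.999% ± 0.579 (SD, n = 3), and an exact two-sided permutation test gave p = 0.1, the smallest value that 3 against 3 libraries allow. The ranges stayed apart with at least 1000 UMIs per cell, without barcodes found in another library (exact p = 0.1 each) and when any 1 library was left out. With at least 2 Cd4 UMIs asked for, the ranges overlapped (exact p = 0.4), as they did when all cells were thinned to 500 UMIs before selection (exact p = 0.3). They also overlapped when the denominator was limited to T cells that met the C1q and other limits (exact p = 0.3) or to those of them without Cd8 (exact p = 0.5). Libraries of different organs stood as replicates in this test, since each condition was read once. Liver PC had a share of 0.545% (0.390 to 0.741%), and the 0 of 395 T cells in kidney PC allow up to 0.759%.

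The label was checked against Cd28 and Icos, which the selection did not use. Cd28 gave 18 UMIs in 14 of the 85 cells, and Icos gave 20 UMIs in 17 cells. In liver PC, Icos stood at 274 CPM (exact 95% Poisson interval 150 to 459, where CPM is relative to the summed UMIs of the cells) against 74.6 CPM (63.7 to 86.7) in CD8 T cells. Cd28 stood at 235 CPM (121 to 410) against 105 CPM (91.7 to 119). CD8 T cells here are cells under the same limits with at least 1 UMI of Cd8a or Cd8b1 and none of Cd4, 5529 in all. When each liver PC cell was thinned to 500 UMIs, 22.5% of CD4 T cells held a UMI of Cd28 or Icos, against 8.01% of CD8 T cells and 1.42% of myeloid-gated cells. Among regulatory-like T cells, set aside for Foxp3 or regulatory UMIs, 3 of 14 held one (21.4%, exact 95% interval 4.66 to 50.8%). Cd28 and Icos therefore did not separate the conventional cells from regulatory-like ones. Outside liver PC these genes were sparse: Icos was at 0 in heart PBMC, liver PBMC and the library labelled heart TIL, and Cd28 was at 0 in heart PBMC. Zbtb7b, which encodes the factor ThPOK that commits thymocytes to the CD4 lineage, gave 6 UMIs, and the CD40 ligand gene Cd40lg gave 1. Markers of gamma delta and innate-like T cells gave 2 UMIs in the 85 cells, both in liver PC. The name therefore rests on few UMIs outside liver PC.

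CD4 and CD8 T cells of the same library were compared to ask which genes set these classes apart. Sums of UMIs per class and library entered edgeR's quasi-likelihood F test with the library as block, in the 6 libraries with at least 3 cells in each class. Among 1370 genes tested, 10 passed an adjusted p of 0.05, or 0.73%, of which 3 were higher in CD4 T cells (0.219%) and 7 lower (0.511%). At an unadjusted p under 0.05 there were 125 genes, and the median log2 fold change over all genes was -0.16. The lower genes were mostly cytotoxic and natural killer receptor genes, and the higher ones were Tnfrsf18 and 2 small nucleolar RNAs.

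Of 13 tested genes in a list of cytotoxic genes, 6 were lower and none higher in edgeR, and the median log2 fold change of the list was -1.01. DESeq2 called 1 of the 13, Gzma. The granule protease gene Gzma stood at 205, 397 and 950.3 CPM in CD4 T cells of heart, liver and kidney PBMC, at 2654 and 455 CPM in the libraries labelled heart TIL and liver TIL, and at 1329 CPM in liver PC. In CD8 T cells of the same 6 libraries it stood at 3312, 2825, 3326, 4471, 1303 and 3732 CPM. CD4 T cells were lower in 6 of 6 libraries, although the highest CD4 value exceeded the lowest CD8 value. In CD4 T cells, 1 UMI equals 205, 397 and 136 CPM in heart, liver and kidney PBMC. Low PBMC values, here and below, can thus rest on 1 UMI. The log2 fold change was -1.74 ± 0.26 (SE), with an edgeR adjusted p of 7.0e-08.

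Gzmb, the other main granule protease gene, stood at 3692, 0 and 407 CPM in CD4 T cells of heart, liver and kidney PBMC, at 4322 and 1364 CPM in the libraries labelled heart TIL and liver TIL, and at 3615 CPM in liver PC. The CD8 values were 3164, 1792, 1441, 5655, 3753 and 6343 CPM. Thus CD4 T cells were lower in 5 libraries and higher in heart PBMC, with a log2 fold change of -1.01 ± 0.25 (SE; edgeR adjusted p = 0.011). Granzyme B transcripts were nevertheless among the most abundant of the listed genes in these cells, with 281 UMIs in 60 of 85 cells. The chemokine gene Ccl5, typical of effector and memory T cells, gave 809 UMIs in 79 cells. In liver PC cells thinned to 500 UMIs, Ccl5 was present in 82.5% of CD4, 88.6% of CD8 and 62.6% of myeloid-gated cells. For Gzmb these shares were 65.0%, 77.2% and 24.4%. The Ccl5 log2 fold change against CD8 T cells was -0.85 ± 0.23 (SE; edgeR adjusted p = 0.040), with lower values in 5 libraries and a higher one in the library labelled heart TIL.

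Genes of the natural killer receptor complex on chromosome 6 followed. Klrd1, which encodes CD94, lies at chr6:129591782-129598775 on GRCm38. Klrk1, which encodes NKG2D, lies at chr6:129610323-129623864, and Klrc1, which encodes the CD94 partner NKG2A, at chr6:129666015-129678973. Klrd1 stood at 235 CPM (121 to 410) in CD4 and 789 CPM (753 to 827) in CD8 T cells of liver PC, and it was lower in CD4 T cells in 6 of 6 libraries (log2 fold change -1.36 ± 0.34 SE; edgeR adjusted p = 0.012). Klrk1 gave 7 UMIs in the CD4 T cells of these 6 libraries, with none in the 3 PBMC libraries, and stood at 173 to 305 CPM in CD8 T cells. Klrc1 gave 13 UMIs in CD4 T cells, again with none in PBMC, and stood at 148 to 461 CPM in CD8 T cells. The Klrk1 log2 fold change was -1.96 ± 0.50 (SE; edgeR adjusted p = 0.016, lower in 6 of 6 libraries), and that of Klrc1 was -1.47 ± 0.40 (SE; edgeR adjusted p = 0.040, lower in 5). A count of 0 in CD4 T cells allows up to 615, 1191 and 407 CPM in heart, liver and kidney PBMC. All 3 limits lie above the Klrk1 values of CD8 T cells, and those of heart and liver above the Klrc1 values. The order in these PBMC libraries could thus not be told from low depth. Perforin (Prf1), the pore former of the granules, was measured at 59 CPM in CD4 and 316 CPM in CD8 T cells of liver PC, with an edgeR adjusted p of 0.070 that missed the threshold. It was called lower with a minimum of 1 cell (edgeR adjusted p = 0.041). Without heart PBMC or without the library labelled heart TIL it was called as well (edgeR adjusted p = 0.045 each).

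Ly6c2, a surface antigen of memory and effector CD8 T cells and of monocytes, stood at 1026, 397 and 272 CPM in CD4 T cells of heart, liver and kidney PBMC and at 2741, 2529 and 3411 CPM in CD8 T cells. In the libraries labelled heart TIL and liver TIL it stood at 834 and 455 CPM against 1152 and 1226 CPM, and in liver PC at 1075 against 2005 CPM. CD4 T cells were lower in 6 of 6 libraries (log2 fold change -1.57 ± 0.27 SE; edgeR adjusted p = 4.7e-06). T cells with neither Cd4 nor Cd8 UMIs, 2571 cells under the same limits, had 2432, 2282 and 2281 CPM of Ly6c2 in the 3 PBMC libraries and 2143 CPM in liver PC, above the CD4 value in each. Marker lists of other lineages were read beside these genes. The macrophage or monocyte list, with 8 genes outside the selection and Ly6c2 itself among them, ran from 2036 to 12890 CPM in CD4 and from 6399 to 13634 CPM in CD8 T cells of the 6 libraries, and was lower in CD4 T cells in 5 of them. The neutrophil list was lower in CD4 T cells in 5 as well, for example 6410.0 against 8172 CPM in liver PC. The part of such RNA in the Ly6c2 difference was not tested.

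Tnfrsf18, the costimulatory receptor GITR that regulatory and activated T cells carry, was the only protein-coding gene called higher. It stood at 410.3, 0 and 679 CPM in CD4 T cells of heart, liver and kidney PBMC, at 379 and 303 CPM in the libraries labelled heart TIL and liver TIL, and at 293 CPM in liver PC. The CD8 values ran from 36.1 to 155 CPM. CD4 T cells were higher in 5 of 6 libraries and had no UMI in liver PBMC, and the log2 fold change was 1.36 ± 0.33 (SE; edgeR adjusted p = 0.011). Of the 85 cells, 12 held 2 UMIs of the regulatory genes, 1 short of the limit, so cells near the regulatory gate were among those kept. Of 5 tested genes of the costimulation list, Tnfrsf18 was the one called. Cd2, an adhesion receptor, was measured higher in CD4 T cells in 6 of 6 libraries, at 547 against 419 CPM in liver PC, with a log2 fold change of 0.53 ± 0.26 (SE; edgeR adjusted p = 0.53).

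The small nucleolar RNA genes Snord118 and Snord13 were also called higher, and are named here after their values were seen. Snord118 stood at 586 CPM (396 to 837) in CD4 and 169 CPM (152 to 187) in CD8 T cells of liver PC, at 834 against 167 CPM in the library labelled liver TIL and at 379 against 221 CPM in the one labelled heart TIL. In PBMC it had 1 UMI in the CD4 T cells of the 3 libraries together. Its log2 fold change was 1.71 ± 0.29 (SE; edgeR adjusted p = 2.1e-06), and that of Snord13 was 1.36 ± 0.32 (SE; edgeR adjusted p = 0.0083). These RNAs have no poly(A) tail in their mature form, while the libraries were primed on poly(A).

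**Figure D2:**
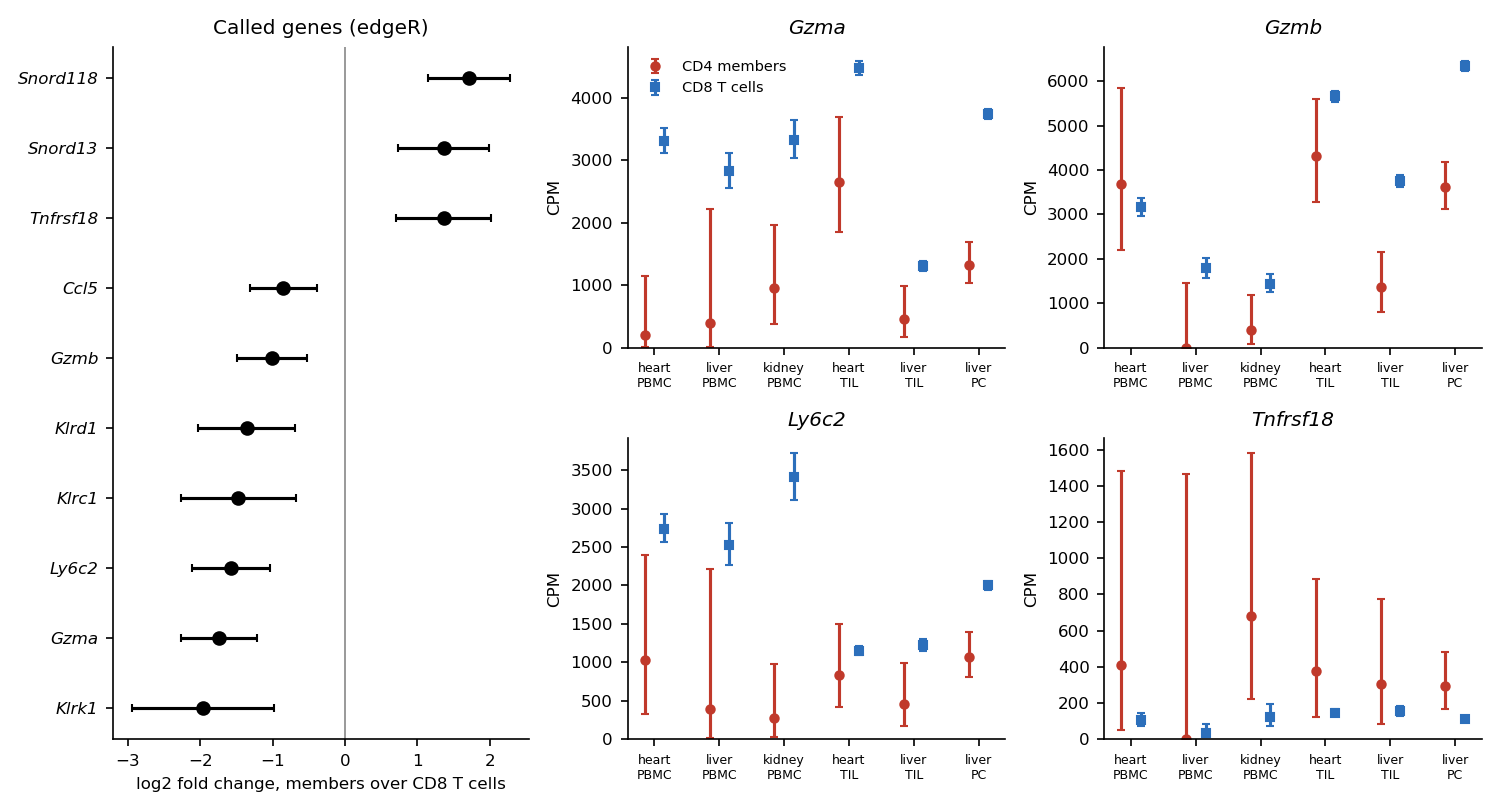
Left, edgeR log2 fold changes of the 10 called genes with 95% intervals, negative where CD4 T cells were lower than CD8 T cells. Right, CPM of 4 of these genes in both classes in the 6 libraries, with exact 95% Poisson intervals. Gzma and Ly6c2 lay lower in CD4 T cells in 6 of 6 libraries, Gzmb in 5, and Tnfrsf18 lay higher in 5.

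The calls leaned on liver PC. Without it 2 genes were called, Gzma and Ly6c2, and these 2 were also called under each of the other alternatives run for this comparison. Without kidney PBMC 5 genes were called, and without the libraries labelled heart TIL and liver TIL together 4 were called, namely Gzma, Ly6c2, Ccl5 and Klrd1. The DESeq2 Wald test called 5 genes, of which Gzma, Ly6c2, Snord118 and Snord13 were among the 10, while S100a8 was not. With it Gzmb, Ccl5, Klrd1, Klrk1, Klrc1 and Tnfrsf18 were not called. In edgeR, with at least 1000 UMIs per cell 3 were called. Each of the 10 genes kept its direction in the alternatives that tested it, 11 to 13 per gene. Leaving out 1 library gave log2 fold changes of 1.61 to 1.88 for Snord118, 1.21 to 1.60 for Snord13 and 1.26 to 1.48 for Tnfrsf18. They were -2.44 to -1.85 for Klrk1, -1.65 to -0.96 for Klrd1 and -1.84 to -1.23 for Klrc1. For Gzmb and Ccl5 they were -1.21 to -0.85 and -1.17 to -0.61.

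Few or no genes of the other lists passed, and many were too sparse to be tested, with 1 of 10 Tfh and 1 of 14 helper cytokine genes tested. Of 12 tested genes for the T-cell receptor and its signalling, 0 passed edgeR (1 at an unadjusted p under 0.05) and 0 passed DESeq2. Trbc2, a constant gene of the receptor beta chain, stood at 3264 CPM in CD4 and 3129 CPM in CD8 T cells of liver PC. Of 13 tested interferon-stimulated genes, 0 passed edgeR (1 at an unadjusted p under 0.05) and 0 passed DESeq2. Ifi27l2a, the most abundant of the 13 by UMIs in CD4 T cells, was measured at 2658 CPM against 1374 CPM in liver PC (edgeR adjusted p = 0.43). Ldha, the lactate dehydrogenase of glycolysis, stood at 2072 and 1862 CPM in liver PC, and 0 of 7 tested glycolysis genes passed either tool (0 at an unadjusted p under 0.05). Of 5 tested Th1 genes 0 passed either tool (0 at an unadjusted p under 0.05), among them Id2, a transcriptional regulator of effector cells. With no filter on low counts, where the median of all genes was -1.07, Id2 was at -1.34 and called lower (edgeR adjusted p = 0.035). For Ifng, which encodes interferon gamma, the edgeR log2 fold change was 0.079 with an interval from -0.68 to 0.84, and differences inside it were not detectable at this depth. Ltb, Sh2d1a, Junb and Selplg, the genes with most UMIs among the tested naive, Tfh, activation and homing genes, had log2 fold changes of 0.02, -0.00050, -0.03 and -0.09, with edgeR adjusted p of 0.95 to 0.999. Lag3, an inhibitory receptor that binds MHC class II, was at 352 CPM in CD4 and 263 CPM in CD8 T cells of liver PC, and 0 of 3 tested inhibitory receptors passed edgeR or DESeq2 (1 at an unadjusted p under 0.05 in each).

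Genes that define helper programmes were mostly too sparse for that test and are described here. Of the 8 Th2 genes in the tables, 6 had no UMI in the 85 cells, Il4 among them, and Gata3, the Th2 master regulator, had 5 UMIs. Of 9 Th17 genes, 7 had none. Of 10 Tfh genes, 8 had a UMI, with 85 UMIs together. Bcl6, the master regulator of Tfh cells, was at 0 and the follicle homing receptor Cxcr5 at 1 UMI, whereas Maf and Izumo1r had 20 UMIs each and Il21 had 7. Th1 genes were all detected, with 275 UMIs over 14 genes. In thinned cells of liver PC, a Th1 gene was present in 72.5% of CD4 T cells, 71.4% of CD8 T cells and 53.5% of myeloid-gated cells. Tbx21, which encodes T-bet, gave 12 UMIs, the inflammatory homing receptor Cxcr3 gave 22 and Ifng gave 19.

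Maf, a transcription factor of Tfh and interleukin-10 producing cells, stood at 274 CPM (150 to 459) in CD4 and 42.4 CPM (34.3 to 51.7) in CD8 T cells of liver PC, at 227 against 44.8 CPM in the library labelled heart TIL, and at 272 against 21.2 CPM in kidney PBMC. It had no UMI in CD4 T cells of heart PBMC, liver PBMC and the library labelled liver TIL. Il21, the cytokine of Tfh cells, had 4 UMIs in CD4 T cells of liver PC (78.2 CPM, against 6.62 CPM in CD8 T cells), 2 in the library labelled liver TIL and 1 in the library labelled heart TIL. When no filter on low counts was applied, 17403 genes were tested and 220 passed edgeR, 5 higher and 215 lower, with the median log2 fold change of all genes at -1.07. Il21 (log2 fold change 3.06 ± 0.74 SE, adjusted p = 0.0099), Maf (1.71 ± 0.43 SE, adjusted p = 0.015) and Il10 (1.70 ± 0.46 SE, adjusted p = 0.035) were among the 5 higher ones in edgeR, while Icos (adjusted p = 0.75) and Cd28 (adjusted p = 0.92) were not.

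Single cells of liver PC were described after thinning each to 500 UMIs, so that depth was equal. A Maf UMI was present in 7 of 40 CD4 T cells (17.5%, exact 95% interval 7.34 to 32.8%), in 2.0% of 1548 CD8 T cells, in 4.87% of 1272 myeloid-gated cells and in 3 of 14 regulatory-like T cells (21.4%), the cells set aside for Foxp3 or regulatory UMIs. At their own depth the shares were 27.5%, 5.68% and 14.6%. Any of the 10 Tfh genes was present in 37.5%, 17.0% and 10.1% of the thinned CD4, CD8 and myeloid-gated cells and in 5 of 14 regulatory-like T cells (35.7%). A UMI of Gzma, Gzmb or Prf1 was present in 34 of the 40 CD4 T cells (85.0%) and in 88% of CD8 T cells, but also in 40.3% of myeloid-gated cells, and the source of these UMIs in either class was not tested. Both a Tfh gene and a granule gene were seen in 11 of the 40 cells, a Tfh gene alone in 4, a granule gene alone in 23 and neither in 2.

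Klrd1 was present in 10% of thinned CD4 T cells, 29.8% of CD8 T cells and 6.53% of myeloid-gated cells. Pdcd1, which encodes the checkpoint receptor PD-1, was present in 2.5%, 7.11% and 0.550% of them. Any of the 18 naive and central memory genes was present in 37.5% of thinned CD4, 34.7% of CD8 T cells and 21.7% of myeloid-gated cells. Of single genes, Ccr7 was in 0 of 40 thinned cells, which allows up to 7.50%, and Tcf7 was in 2.5%. Cells with naive genes and without any Th1 or cytotoxic gene numbered 0 of 40 CD4 and 2 of 1548 CD8 T cells. Cells with Th1 or cytotoxic genes alone numbered 25 of 40, and 15 held both. Among myeloid-gated cells, 71.1% held Th1 or cytotoxic genes alone, a state that also asks for no naive gene. Any cytotoxic gene was present in 40 of 40 CD4 T cells, 99.0% of CD8 T cells and 82.5% of myeloid-gated cells. How much of this came from RNA of other cells was not tested.

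**Figure D3:**
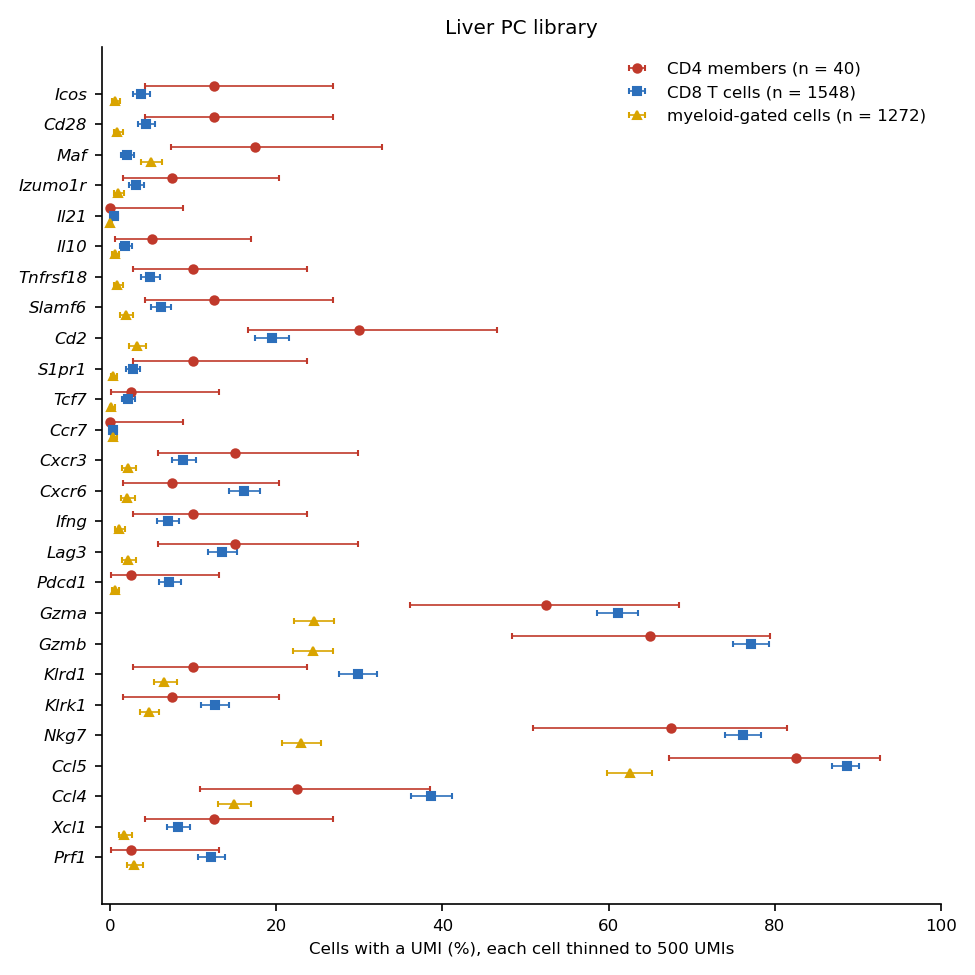
Percent of liver PC cells with a UMI of each gene after thinning every cell to 500 UMIs, for CD4 T cells, CD8 T cells and myeloid-gated cells, with exact 95% binomial intervals. Maf lay at 17.5% in CD4 against 2.0% in CD8 T cells and Klrd1 at 10% against 29.8%, while Gzma, Gzmb, Nkg7 and Ccl5 lay high in both T-cell classes and well above 0 in myeloid-gated cells.

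CD4 T cells from graft and blood were compared next. Only the libraries labelled heart TIL and liver TIL and the 3 PBMC libraries held at least 3 of these cells. In edgeR, 5 of 147 genes passed, or 3.4%, with 13 at an unadjusted p under 0.05. Higher in TIL were Ccl4, a chemokine of activated lymphocytes and macrophages, and H2-Ab1 and Cd74, which belong to MHC class II presentation by dendritic cells, B cells and macrophages. Lower in TIL were S100a9 and Retnlg, which are neutrophil genes.

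Ccl4 stood at 5080.0 CPM (3937 to 6451) in the library labelled heart TIL and at 2122 CPM (1410 to 3067) in the one labelled liver TIL, where 12 and 7 of 15 cells held a UMI. None of the 14 cells of the PBMC libraries held one, so Ccl4 was at least 17.7-fold higher in TIL when 3 UMIs over the pooled PBMC cells are taken as the limit (edgeR adjusted p = 0.0024). H2-Ab1 stood at 3260.3 and 2425 CPM in these TIL libraries and had no UMI in PBMC, at least 14.0-fold higher by the same limit (edgeR adjusted p = 0.0024). Cd74 stood at 3791 and 3562 CPM in TIL and at 821 CPM in heart, 794 CPM in liver and 0 CPM in kidney PBMC (log2 fold change 3.07 ± 0.75 SE; edgeR adjusted p = 0.033). For these 3 genes no TIL value overlapped the PBMC values, which was a condition for naming called genes and adds no support.

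S100a9 stood at 1592 and 531 CPM in the libraries labelled heart TIL and liver TIL and at 29128, 15488 and 8010 CPM in PBMC of heart, liver and kidney (log2 fold change -4.04 ± 0.91 SE; edgeR adjusted p = 0.024). Retnlg stood at 227 and 75.8 CPM against 17436, 2780.0 and 1493 CPM (log2 fold change -5.56 ± 1.26 SE; edgeR adjusted p = 0.024). Again the groups did not overlap, under the same condition for naming. The 5 genes had the same direction in CD8 T cells and in all cells of these libraries. Pooled S100a9 was 15.3-fold higher in PBMC for CD4 T cells, 17.4-fold for CD8 T cells and 27.9-fold for all cells that passed the limits on depth and mitochondrial UMIs. Cd74 was 9.04-fold, 5.41-fold and 3.53-fold higher in TIL in the same order, and H2-Ab1 was 8.26-fold and Ccl4 16.7-fold higher in TIL for CD8 T cells. The neutrophil list reached 107077, 35346 and 16834 CPM in CD4 T cells of the PBMC libraries and 5535 and 2122 CPM in those of the TIL libraries. In CD8 T cells it reached 106383, 48502 and 26393 CPM against 5595 and 4623 CPM. The dendritic cell list, to which H2-Ab1 and Cd74 belong, reached 8264 and 6745 CPM in CD4 T cells of TIL against 1231, 1589 and 0 CPM in PBMC. The B cell list reached 3184 and 11293 CPM in TIL against 410.3, 1986 and 543 CPM in PBMC. How much of these changes came from RNA of other cells was not tested.

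The graft and blood calls depended on single libraries. Without heart PBMC, or without liver PBMC, 0 genes were called, with 34 and 15 at an unadjusted p under 0.05, while DESeq2 on the full set called 6, namely Ccl4, H2-Ab1, S100a9 and Retnlg with Apoe and S100a8, and not Cd74. With a minimum of 1 cell, which adds kidney TIL with no Ccl4 UMI in its 1 cell, Cd74, H2-Ab1, S100a9 and S100a8 were called, and Ccl4 and Retnlg were not. Cd74 was also not called without shared barcodes or without kidney PBMC. Without the library labelled heart TIL, 4 genes were called, of which Retnlg alone was among the 5, beside Hba-a1, Igha and Igkc. Without the library labelled liver TIL, 6 were called, S100a9 not among them. Leaving out 1 library moved the log2 fold change of Cd74 between 2.09 without kidney PBMC and 4.18 without heart PBMC. That of Retnlg moved between -6.35 without the library labelled heart TIL and -3.41 without heart PBMC, and that of S100a9 between -4.99 and -3.22 for the same libraries. With the organ as block, 8 genes were called when the labels were taken as they stand, the 5 above among them, and 0 when the organs of the libraries labelled heart TIL and liver TIL were exchanged (7 at an unadjusted p under 0.05). When liver PC was added to TIL as tissue, 0 were called (12 at an unadjusted p under 0.05). Both doubted organ labels belong to the TIL side of this test, so it could not be run without them.

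**Figure D4:**
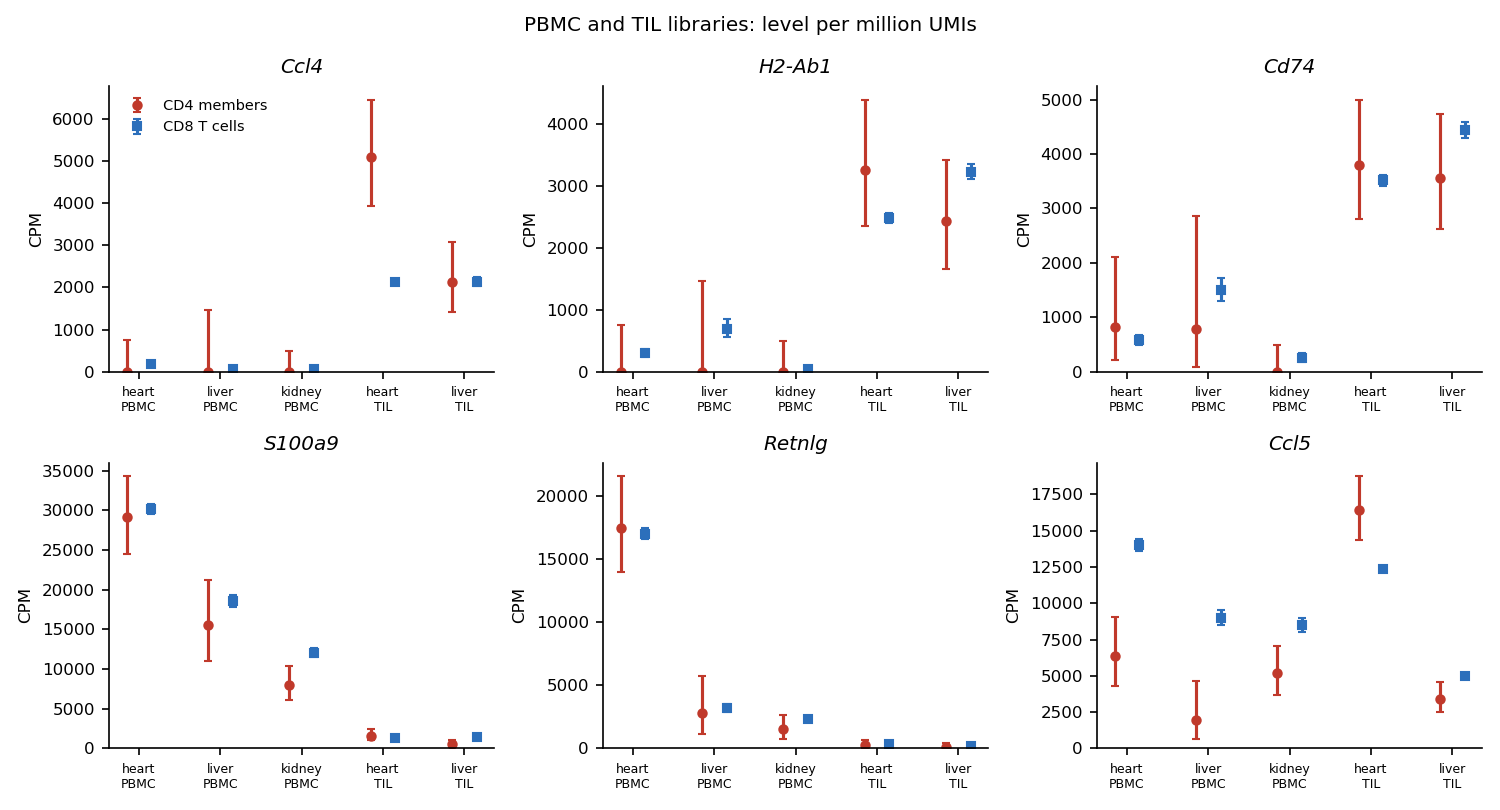
CPM of 6 genes in CD4 T cells and CD8 T cells of the 3 PBMC libraries and the libraries labelled heart TIL and liver TIL, with exact 95% Poisson intervals. Ccl4, H2-Ab1 and Cd74 lay higher in TIL and S100a9 and Retnlg lower in both classes, while Ccl5 in CD4 T cells lay at most at 6359 CPM in PBMC and at 16453 and 3411 CPM in TIL.

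Whether the change from blood to graft differed between CD4 and CD8 T cells was tested as an interaction. Of 2444 genes, 1 passed edgeR, or 0.0409%, with 227 at an unadjusted p under 0.05 and a median of 0.57 on the log2 scale. That gene was Ccl5, with a difference of 1.86 ± 0.34 (SE; edgeR adjusted p = 1.0e-04). In CD4 T cells Ccl5 stood at 6359 CPM in heart, 1986 CPM in liver and 5159 CPM in kidney PBMC and at 16453 and 3411 CPM in the libraries labelled heart TIL and liver TIL. In CD8 T cells it stood at 13981, 9009.7 and 8503 CPM in PBMC and at 12347 and 5016 CPM in TIL. Pooled over these libraries, TIL over PBMC was 1.98-fold for CD4 T cells and 1.64-fold for T cells with neither Cd4 nor Cd8. It was 0.839-fold for CD8 T cells, so a pooled ratio above 1 was not particular to the cells chosen on Cd4. For all passing cells it was 1.97-fold, which does not compare like cells. T cells were 6099 of 9668 and 4227 of 9337 passing cells in the libraries labelled heart TIL and liver TIL. They were 809 of 7772, 344 of 6822 and 429 of 1143 in heart, liver and kidney PBMC. In CD8 T cells the library labelled heart TIL lay within the PBMC range and the one labelled liver TIL below it, whereas in CD4 T cells the library labelled heart TIL alone lay above PBMC, and their own TIL against PBMC test gave an edgeR adjusted p of 0.70. With no filter on low counts that test called Ccl5 higher in TIL (log2 fold change 1.76; edgeR adjusted p = 0.018). The library labelled liver TIL lay within the CD4 range of PBMC. Without the library labelled heart TIL the difference was 1.05 and no gene was called, and none was called without heart PBMC or by DESeq2 (121 at an unadjusted p under 0.05). With liver PC counted as tissue 46 genes were called, all higher in that sense, Ccl5 among them. Among 14 tested cytotoxic genes, 13 had a positive difference, with a median of 2.12, and 1 passed, beside 1628 positive differences among the 2444 genes and 15 among 16 homing genes.

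Libraries of 1 compartment were set side by side without a test, as each condition had 1 library. A gene was counted when it was at least 2-fold above every other library of its compartment and had at least 10 UMIs. In the library labelled heart TIL, 52 of 259 genes (20.1%) were higher than in the library labelled liver TIL, and 36 of 230 (15.7%) were higher the other way. Leading the first were Apoc1 and Trf, which hepatocytes express strongly, with 13 and 11 UMIs in these 15 cells and 0 in the others. The hepatocyte list as a whole stood at 3033 CPM in these CD4 T cells, 646 CPM in CD8 T cells of the same library and 0 UMIs in CD4 T cells of the library labelled liver TIL. Leading the second were globin genes, with 159 UMIs of Hbb-bs against 0. Hbb-bs in CD8 T cells stood at 22264 against 280 CPM in the same libraries, so the gap was not particular to CD4 T cells in its direction. Ccl1, a chemokine of activated T cells, had 14 UMIs in the 15 CD4 T cells of the library labelled liver TIL (1061 CPM) and 0 in the other, against 120 and 23.1 CPM in CD8 T cells.

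In PBMC, 18 of 65 genes (27.7%) were counted in heart, 4 of 27 (14.8%) in liver and 14 of 126 (11.1%) in kidney. Heart PBMC led with the neutrophil genes Wfdc21, Lcn2 and Retnlg and with Gzmb, which had 18 UMIs in 4 cells against 0 in liver and 3 in kidney. Kidney PBMC led with Ppp1ca, Atp5j2, Rpl22l1, Mif and Atp5j, at 10 to 13 UMIs each. The macrophage migration inhibitory factor gene Mif was at 1358 CPM in kidney, 410.3 CPM in heart and 0 in liver PBMC, and in CD8 T cells at 1095, 458 and 672 CPM. With 3 to 7 cells per library, 1 cell can decide such a ratio.

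The class nearest to the conventional cells was compared last. Regulatory-like T cells, defined by Foxp3 or by at least 3 regulatory UMIs under otherwise equal limits, numbered 17, of which 14 lay in liver PC, so no test over libraries was made. In liver PC, 870 genes had at least 10 UMIs in either class. Of these, 146 (16.8%) were at least 2-fold higher in the 40 conventional cells and 44 (5.06%) in the 14 regulatory-like cells, and the smaller class has the shallower sum. Il10, an inhibitory cytokine, stood at 674 against 156 CPM, with its UMIs in 3 of 14 regulatory-like and 5 of 40 conventional cells. Regulatory-like cells had more of the actin-capping gene Capg (1068 against 313 CPM), more of the tissue homing receptor Cxcr6 (787 against 274 CPM) and more Tnfrsf18 (674 against 293 CPM). Cxcr6 UMIs lay in 10 of 14 regulatory-like and 10 of 40 conventional cells. Those of Tnfrsf18 lay in 5 of 14 and 14 of 40, nearly equal shares of 35.7% and 35.0%. Conventional cells held 12 UMIs of Klrd1 and 13 of the chemokine Xcl1, and regulatory-like cells held 0 of either, in sums of 51170 and 17797 UMIs. The 146 genes also included genes of other lineages. S100a9 stood at 2365 against 730 CPM, Retnlg at 508 against 112 CPM and H2-Ab1 at 958 against 225 CPM. How much of the difference between these classes came from RNA of other cells was not tested.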

How the data were processed

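Cells of heart, liver and kidney allografts and of recipient blood were profiled by Microwell-seq. Per the labels and the study's methods, the authors aligned reads to GRCm38 with STAR and deposited raw UMI counts per gene for 10000 barcodes in each of 8 libraries. Barcodes below 500 UMIs, or above 10% mitochondrial UMIs, were removed. Library totals ran from 3418722 to 19171264 UMIs, and no doublet caller was run. The members and the gene lists were chosen with earlier results of these data known.

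UMIs were summed per class and library. Sums were tested with edgeR 4.0.16 (R 4.3.3; TMM, filterByExpr, quasi-likelihood F test, Benjamini-Hochberg adjustment, threshold 0.05), with the library as block where classes were compared. The 23 genes used for selection were left out. A minimum of 20 cells per class and library had been planned, but liver PC alone reached it, so 3 was used, a choice made after the cell numbers were seen. Each edgeR SE is the absolute log2 fold change divided by the square root of F, and the 95% intervals of fold changes are normal ones. For TIL against PBMC, a normal reading of the SE gives more certainty than the F test did. DESeq2 1.42.0 was an alternative. The edgeR tests were also run on simulated counts with the same spread for all genes, which does not give the rate of false calls here. Libraries were compared untested with at least 2-fold, at least 10 UMIs and a pseudocount of 1 CPM. Shares have exact Clopper-Pearson and CPM exact Poisson 95% intervals (scipy 1.17.1), which cover counting error only, and a count of 0 was given a limit of 3 UMIs or cells. Nothing in the labels shows that libraries came from separate animals, so p-values refer to these libraries only. The edgeR fit shares information on spread over genes. A gene's p-value therefore does not measure its own spread between libraries alone. The study's methods draw blood and graft samples of an organ from 2 recipients, so a fit with the organ as block was an alternative. Named genes were the list members with most UMIs or largest called changes, called genes that differed alike in every library or did not overlap between compartments, and the 5 with the largest ratio per library. Other genes named, Snord118, Snord13 and Prf1 among them, were chosen after their values were seen. Gene coordinates are from GENCODE on GRCm38. Some genes of the lists are not reported here.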

Additional observations from a re-analysis of the deposited data

Results flagged for a closer look

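The change of Ccl5 from PBMC to TIL differed between CD4 and CD8 T cells by 1.86 on the log2 scale (edgeR adjusted p = 1.0e-04). It was called in the 2 libraries labelled heart TIL and liver TIL against 3 PBMC libraries, and was not called without heart PBMC or without the library labelled heart TIL. Pooled Ccl5 in TIL over PBMC was 1.98-fold for CD4 T cells, 1.64-fold for T cells with neither Cd4 nor Cd8 and 0.839-fold for CD8 T cells. A pooled ratio above 1 was thus not particular to the cells chosen on Cd4. The TIL against PBMC test of CD4 T cells gave an edgeR adjusted p of 0.70 for Ccl5. In these cells the library labelled heart TIL alone lay above PBMC.

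Among barcodes under 500 UMIs, which the comparisons did not use, 17 met every other condition for conventional CD4 T cells. No group had 4 or more libraries, so single libraries could not be checked for standing apart within a group.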

How the results depend on the processing

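For CD4 against CD8 T cells, each of the 10 called genes kept its direction in 125 combinations of gene and alternative, and 85 of these were also called. The number of calls was 5 by DESeq2, 220 with no filter on low counts, 3 with at least 1000 UMIs per cell, 4 without the libraries labelled heart TIL and liver TIL, and 2 to 10 when 1 library was left out. For TIL against PBMC the number was 15 with no filter, 0 with at least 1000 UMIs (7 at an unadjusted p under 0.05), 0 with liver PC as tissue, and 0 to 6 when 1 library was left out. With the organ as a block, a pairing of blood and graft libraries drawn from the recipients of 1 organ, it was 8 as labelled and 0 with the organs exchanged. For the interaction it was 0 by DESeq2, 0 with no filter (130 at an unadjusted p under 0.05), 0 with 1 cell as minimum (83), 46 with liver PC as tissue, and 0 to 1 when 1 library was left out. The TIL minus PBMC share was -0.753 percentage points with kidney and liver PC as tissue (exact permutation p = 0.036, with overlapping ranges) and -1.02 to -0.454 when 1 library was left out. With PC as tissue, the TIL and PC libraries of liver and of kidney entered as separate units, although both can come from the same recipients. Between libraries, at least 30 UMIs gave 10 genes for heart TIL, 8 for liver TIL, 2 for heart PBMC and 0 for liver and kidney PBMC, and at least 1000 UMIs per cell gave 10, 21, 27 and 31 for heart TIL, liver TIL, heart PBMC and kidney PBMC, with liver PBMC left out for too few cells. Prf1 was called lower with 1 cell as minimum, without heart PBMC and without the library labelled heart TIL. Xcl1, not tested in the main fit, was called lower with no filter, without heart PBMC and without liver PBMC. Of the other uncalled genes, Id2 was called lower with no filter, where the T-cell receptor and glycolysis lists also had 1 lower call each, and some changed sign in log2 fold change. With no filter, Cd2 was -0.32, Lag3 -0.73, Ltb -0.92, Ifng -0.71 and Ifi27l2a -0.37, and with DESeq2 Lag3 was -0.076, Ltb -0.10 and Sh2d1a 0.019. With at least 1000 UMIs, Id2 was 0.23, Junb 0.33, Selplg 0.37 and Ldha 0.04. With 1 cell as minimum Sh2d1a was 0.032 and Junb 0.026, with DESeq2 size factors Sh2d1a was 0.0078, and without shared barcodes Sh2d1a was 0.060 and Selplg 0.0044. Without both doubted TIL libraries Ltb was -0.056, Sh2d1a 0.029 and Junb 0.17. Leaving out 1 library gave -0.15 to 0.0089 for Trbc2, -0.046 to 0.25 for Lag3, -0.27 to 0.18 for Ltb, -0.022 to 0.10 for Sh2d1a, -0.72 to 0.44 for Ifng, -0.57 to 0.16 for Junb and -0.11 to 0.030 for Selplg. The causes were not tested. The 1-cell minimum, the fit without both TIL libraries and the other denominators were chosen after seeing the data. Selections with at least 2 Cd4 UMIs, or without cells holding UMIs of other lineages, left too few cells for a fit. Where 1 library was left in a group, it was assumed to vary like the others. Depth limits genes with few UMIs, since 3 to 40 cells stand behind each library.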
